A study of Mus musculus with 6 samples.

Results

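The miR-335 hairpin gives a pair of mature miRNAs, mmu-miR-335-3p and mmu-miR-335-5p, and both were measured by RT-PCR in the lungs of newborn mice. The pair was chosen by its Ct values in these same samples, where the 3p strand differed between groups and the 5p strand far less. The assays were then found by name, as those called miR-335, miR-335-3p or miR-335-5p once the species prefix was dropped. This gave 2 of the 750 miRNA wells in the table, 1 per strand, both on the first of 2 plates of 384 wells (cards). Hyperoxia lungs (3 samples) came from mice placed in 95% oxygen before 12 hours of age and kept there for 7 days. Room air lungs (3 samples) came from mice of the same age kept in room air for the same time. All lungs were right lungs taken at day 7 after the pulmonary artery had been perfused with buffer, and the dams were exchanged between the chambers daily. The labels give no strain, sex or genotype. They do not say whether the samples of a group were separate animals, separate litters or pools. The samples were treated as replicates, and the spread between them may be partly technical.

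A miRNA hairpin is cut by Dicer into a duplex of its 5′ and 3′ arms, and usually one arm is loaded into Argonaute and kept while the other is degraded. Bases 2 to 8 of the loaded strand, the seed, pair with target messages. miR-335 is transcribed from within Mest (mesoderm specific transcript, also called Peg1), an imprinted gene expressed from the paternal copy and known for its high expression in the embryo and fetus. Both strands are cut from 1 transcript. The 5p strand is the better known, chiefly in human cells, as a restraint on tumour cell spread through SOX4 and tenascin C, and as a miRNA of mesenchymal stem cells.

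In RefSeq's GRCm38.p6 the hairpin lies at chr6:30741299-30741396 on the plus strand, inside the bounds of Mest (chr6:30733506-30748466, plus strand). It starts 7793 bases after the first listed Mest transcript start and 3246 bases after the last of 3 listed starts. Both mature names were matched in RefSeq's miRNA table. The mature strands are shown first because the 3p and 5p assays each read only one of them, with the seed in capitals.
miR-335-3p: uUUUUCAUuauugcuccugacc
miR-335-5p: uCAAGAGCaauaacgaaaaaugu
The hairpin of 98 bases is shown with both mature strands in capitals, 5p first and 3p second.
Mir335: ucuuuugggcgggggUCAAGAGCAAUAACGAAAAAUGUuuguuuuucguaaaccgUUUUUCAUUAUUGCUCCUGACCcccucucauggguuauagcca
The 3p strand, 22 bases long at chr6:30741354-30741375, holds 11 U. The 5p strand, 23 bases long at chr6:30741314-30741336, holds 12 A. In the minimum free energy fold (-44.3 kcal/mol, RNAfold), 18 bases of the 5p strand paired with the 3p strand, through 13 A-U and 5 G-C pairs, with 17 bases between the strands. The first 4 bases of the 3p strand were all paired and held 0 G-C pairs, and 3 of the first 4 bases of the 5p strand were paired, 1 of them G-C. Neither seed was shared: 0 other mature names in the RefSeq table had bases 2 to 8 of the 3p strand and 0 had those of the 5p strand, among 1738 mature sequences.

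Abundance was read as the threshold cycle (Ct), which counts the PCR cycles needed to reach a set signal. More RNA gives a lower Ct, and where each cycle doubles the product, 1 cycle less means doubled RNA. The first card detected (Ct under 35) 312 to 319 miRNAs per sample in hyperoxia and 307 to 317 in room air. Its lung-typical assays were abundant: endothelial miR-126-3p had Ct values between 11.3 and 13.6, smooth muscle miR-145 between 14.1 and 16.0 and epithelial miR-200c between 16.2 and 17.6 over the 6 samples. The mean Ct of the 282 miRNAs detected in all samples was 23.1 ± 0.45 in hyperoxia and 22.4 ± 0.30 in room air (SD, n = 3 each), 0.76 cycles later in hyperoxia. On the second card hyperoxia 2 and room air 1 shared 308 of 309 amplified Ct values, against 0 of 312 on the first card. The miR-335 assays are on the first card, and values without each of these samples are given beside the results.

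miR-335-3p was far lower in every hyperoxia lung than in any room air lung, while miR-335-5p, cut from the same hairpin, was only slightly lower. The 3p strand had Ct values of 25.06, 22.37 and 24.79 in hyperoxia, against 19.42, 20.45 and 20.49 in room air. The groups did not overlap, and hyperoxia 2 stood nearest to room air. The 5p strand had Ct values of 19.40, 18.40 and 18.96 in hyperoxia, against 17.60, 18.13 and 17.50 in room air. Here too the groups did not overlap, but hyperoxia 2 and room air 2 lay close together. Since these values chose the pair, the differences below are descriptions and carry no test.

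**Figure D1:**
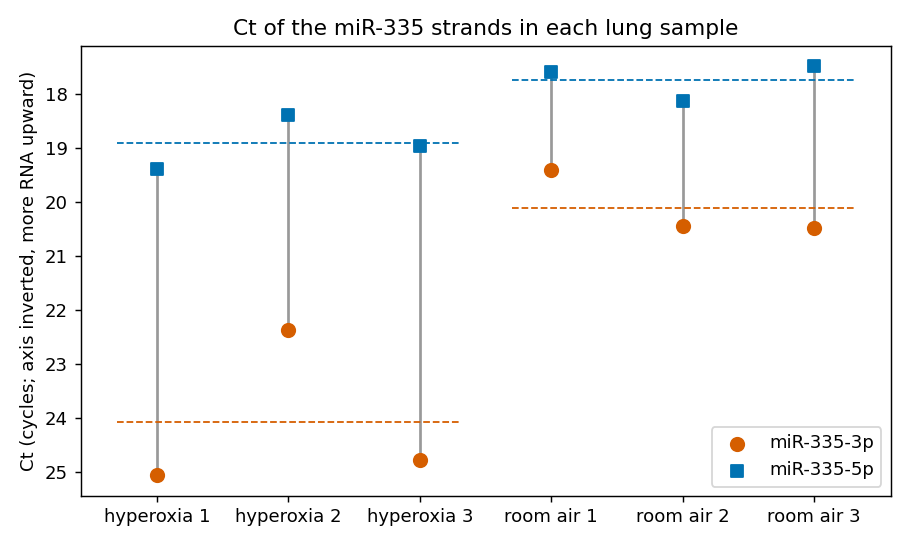
Ct of miR-335-3p (circles) and miR-335-5p (squares) in each of the 6 samples, with the axis inverted so that more RNA is upward. Grey lines join the strands of a sample and dashed lines are group means. The 3p strand averaged 24.1 cycles in hyperoxia and 20.1 in room air, and the 5p strand 18.9 in hyperoxia and 17.7 in room air.

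The mean Ct of miR-335-3p was 24.1 ± 1.48 in hyperoxia and 20.1 ± 0.61 in room air (SD, n = 3 each), 3.96 cycles later in hyperoxia. That of miR-335-5p was 18.9 ± 0.50 in hyperoxia and 17.7 ± 0.34 in room air (SD, n = 3 each), 1.18 cycles later. Part of both shifts was shared with the mean of the 282 miRNAs, which ran 0.76 cycles later in hyperoxia. Not all RNAs of the card ran later. Among the control RNAs, snoRNA135, snoRNA202 and U87 differed by -0.078, 0.038 and -0.13 cycles, while Y1 and U6 were later by 0.41 to 1.06. Each sample's Ct was subtracted from that sample's mean Ct over the 282 miRNAs, which gives a log2 relative abundance with 0 at the card's mean. Being bulk lung, these values do not tell fewer cells of a type from less RNA per cell.

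On this scale miR-335-3p stood at -1.60, 0.24 and -1.48 in hyperoxia, against 2.61, 2.04 and 2.11 in room air. It lay above the card's mean in all room air samples and below it in hyperoxia 1 and 3. The difference was -3.20 ± 0.56 (log2, limma estimate ± SE), a level 9.18-fold lower in hyperoxia. Over the 9 pairings of a hyperoxia with a room air sample the distance ran from 1.80 to 4.21. Without hyperoxia 2 the difference was -3.78 ± 0.30, and without room air 1 it was -3.02 ± 0.67.

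miR-335-5p stood at 4.07, 4.21 and 4.35 in hyperoxia, against 4.43, 4.36 and 5.10 in room air. The highest hyperoxia and lowest room air values were only 0.0088 apart, so the groups met without overlapping. The difference was -0.42 ± 0.29 (log2, limma estimate ± SE), a level 1.34-fold lower in hyperoxia. It rested largely on room air 3: without that sample it was -0.19 ± 0.21. Without hyperoxia 2 it was -0.41 ± 0.37, and without room air 1 it was -0.52 ± 0.36.

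Both strands thus belong to the assays whose groups do not overlap with hyperoxia lower, which on the first card were 46 of 282 or 16.3%. A further 16 (5.67%) did not overlap with hyperoxia higher. This split of 46 to 16 was 76 to 6 with the U6 wells of row A as reference, 105 to 5 with the control RNAs and 131 to 3 with no reference. Over all 551 miRNA assays tested by limma, 0 were lower (0.00%) and 0 higher (0.00%) past an adjusted p of 0.05, so neither strand passed. At an unadjusted p under 0.05, 30 assays (5.44%) were lower and 20 (3.63%) higher. By size, miR-335-3p ranked 2 from the lowest of the 282 first-card differences and miR-335-5p ranked 87. The one assay below the 3p strand, miR-324-5p, was at -4.43 ± 2.88 and lies in plate row G. The median standard deviation of Ct between samples of a group was 2.12 cycles in row G, 0.52 in row H, which holds the miR-335 wells, and at most 0.72 in the other rows. The median log2 difference of all tested assays was -0.12.

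**Figure D2:**
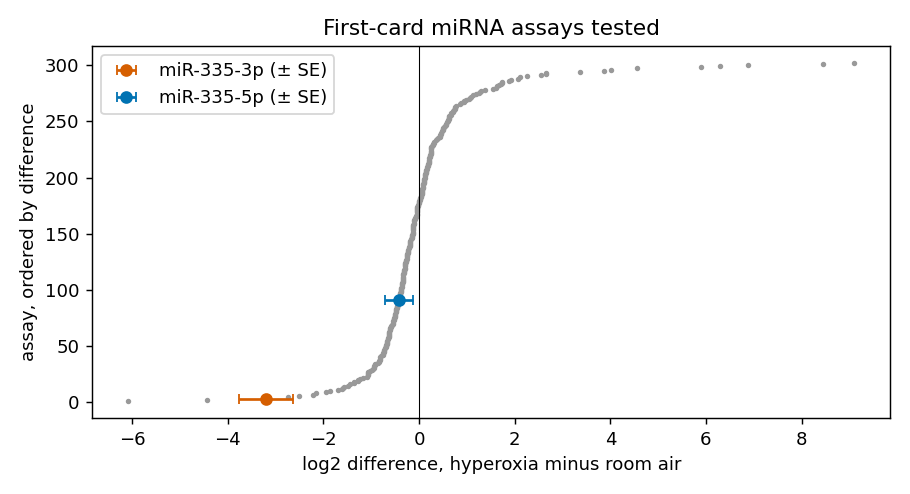
Log2 difference, hyperoxia minus room air (horizontal axis), of the 302 first-card assays tested, stacked in order from lowest to highest (grey points). miR-335-3p at -3.20 lies near the lower end and miR-335-5p at -0.42 within the steep middle part. Bars are ± SE from limma.

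The same values can be restated as abundance ranks. miR-335-3p ranked 178, 142 and 176 among the 282 first-card miRNAs in hyperoxia, where 1 is the most abundant, against 98, 111 and 108 in room air. miR-335-5p ranked 65, 53 and 47 in hyperoxia, against 46, 51 and 38 in room air. A rank compares Ct values of different assays, whose efficiencies were not measured.

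A change of reference shifts both strands by the same log2 amount, which is larger beside the small 5p difference than beside the 3p difference. The small control RNAs of the first card differed between groups by -0.13 (U87) to 1.06 cycles (the U6 wells of row B). U6 itself differed by 0.43 cycles in the wells of row A, although both rows read the same Ct in room air 1 (9.364) and room air 3 (10.258). Set against each control in turn, miR-335-3p was later in hyperoxia by 2.90 to 4.09 cycles and miR-335-5p by 0.12 to 1.31 cycles. The low ends of both ranges rest on the U6 wells of row B alone. Both strands were on the lower side in hyperoxia with every control, and the size for the 5p strand depended on which one was used. The authors' deposited table gives a fold of hyperoxia over room air of 0.0869 for the 3p strand and 0.596 for the 5p strand, relative to the U6 wells of row A. With that reference the log2 differences here were -3.53 ± 0.72 and -0.75 ± 0.44 (± SE).

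The strands were then compared within each sample, where the reference cancels. The gap, Ct of 3p minus Ct of 5p, was 5.67, 3.97 and 5.83 cycles in hyperoxia, against 1.82, 2.32 and 2.99 cycles in room air. The 5p strand came up earlier in all 6 samples, and every hyperoxia gap was wider than every room air gap, by at least 0.98 cycles. The mean gap was 5.15 ± 1.03 in hyperoxia and 2.38 ± 0.59 in room air (SD, n = 3 each). It was wider by 2.78 ± 0.68 cycles (± SE) in hyperoxia, a 6.86-fold shift of the ratio of the strands where each cycle doubles the product. The gap also holds any difference in efficiency between the assays, which was not measured in either group. Without hyperoxia 2 the change was 3.37 cycles, without room air 1 it was 2.50 cycles, and over the 6 samples left out in turn it ran from 2.44 to 3.37.

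Other hairpins on the first card show how far such gaps moved elsewhere. Both strands of 36 hairpins had an assay there, and for 20, miR-335 among them, both were detected in all 6 samples. The median absolute change of the gap over the 19 other hairpins was 0.36 cycles, and for 18 of them it was under 1 cycle. miR-335 ranked 2 of 20 by size of change, and outside row G it ranked 1 with the next of 17 other hairpins at 0.97 cycles. Besides miR-335, gaps of hyperoxia and room air did not overlap for 2 of the 19 others (10.5%). They were miR-339, wider by 0.61 cycles, and miR-125a, narrower by 0.67 cycles, both named after their values were seen.

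The hairpin above miR-335 in this order was miR-324, whose 5p assay lies in row G. Its gaps were 0.033, 0.12 and -9.43 cycles in hyperoxia, against 3.93, -0.10 and -0.024 cycles in room air, so hyperoxia 3 and room air 1 stood far from the rest. The hairpin below it was miR-139, from an intron of the phosphodiesterase gene Pde2a. Its gaps were 5.72, 7.29 and 5.87 cycles in hyperoxia, against 4.94, 5.20 and 5.81 in room air, and they overlapped. At the other end, the gap of miR-345 changed by -0.028 cycles, that of miR-434 by 0.070 and that of miR-340 by -0.079. miR-434 is itself a miRNA of an imprinted region, Dlk1-Dio3.

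**Figure D3:**
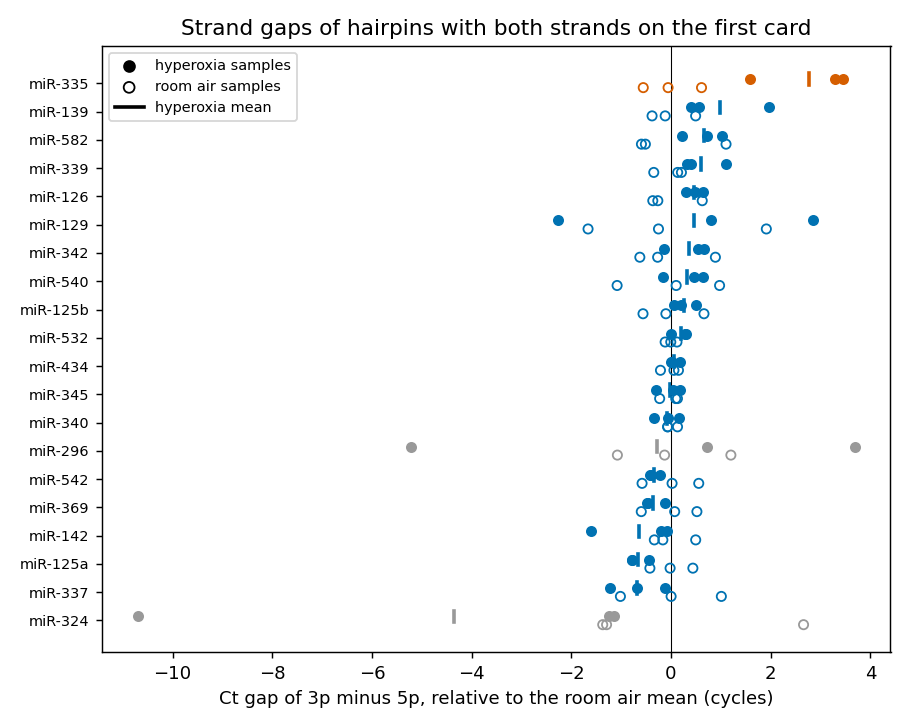
Gap of Ct between the 3p and 5p strands of 20 hairpins on the first card, in cycles relative to the hairpin's room air mean. Filled points are hyperoxia samples, open points room air samples and ticks hyperoxia means. Grey marks hairpins with a well in row G. The miR-335 mean lies 2.78 cycles to the right and miR-139 follows at 0.97.

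The strands also differed in how much the samples of a group scattered. Before the reference, they deviated from their group's mean Ct in the same direction in 5 of 6 samples. In hyperoxia 2 the 3p strand was 1.70 cycles and the 5p strand 0.52 cycles earlier than the group's mean. That sample's card also ran earlier, with a mean Ct of 22.6 against 23.5 and 23.3 in the other hyperoxia samples. On the log2 scale relative to the card, the 3p strand kept a deviation of 1.18 in hyperoxia 2, while the 5p strand was at 0.0013. There the strands deviated in opposite directions in hyperoxia 3, room air 1 and room air 3. The standard deviation of miR-335-3p on that scale was 1.03 in hyperoxia and 0.31 in room air (n = 3 each). In hyperoxia 82.6% of first-card assays had a smaller one, and in room air 41.1% did. For miR-335-5p it was 0.14 in hyperoxia and 0.41 in room air (n = 3 each), with 10.3% and 54.3% of assays smaller.

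Likeness of pattern was measured as the root mean square difference of log2 relative abundance over the 6 samples, each assay centred on its own mean, among 281 other first-card assays. The measure holds the group difference and its size, so an assay with a large difference lies far from most others and its neighbours share its direction. For miR-335-3p the nearest assay was at 0.88 and the median over all was 1.73. Its own other strand was at 1.55, and 67 assays were nearer than that. The differences (log2 ± SE) of the 5 nearest were as follows. The rat assay of miR-219-1-3p, cut from a hairpin of the miR-219 family known in oligodendrocyte differentiation, was at -1.95 ± 0.59 and near the detection limit, with a mean Ct of 32.8 in hyperoxia and 30.1 in room air. The rat assay of miR-351 was at -1.70 ± 0.56 and miR-503 at -1.60 ± 0.32, both of an X-chromosomal cluster. The brain-enriched miR-153 was at -1.48 ± 0.48. miR-540-3p, of the imprinted Dlk1-Dio3 region, was at -1.28 ± 0.78. Of the hyperoxia samples, hyperoxia 2 was the highest for miR-335-3p, miR-219-1-3p and miR-540-3p, and not for the other 3 neighbours.

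For miR-335-5p the nearest assay was at 0.16 and the median over all assays was 0.52. They were miR-544, miR-376a and miR-495 of the Dlk1-Dio3 region, miR-148a, known for repressing DNA methyltransferases, and miR-106b, of the Mcm7 intron cluster. Their differences (log2 ± SE) were -0.60 ± 0.32, -0.40 ± 0.22, -0.29 ± 0.31, -0.12 ± 0.30 and -0.44 ± 0.26. That of miR-148a turned to 0.12 without room air 3. The 5p strand and these 5 assays were all at their highest in room air 3. The list of Dlk1-Dio3 miRNAs supplied 3 of these 5, and made up 41 (14.5%) of the 282 first-card assays.

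**Figure D4:**
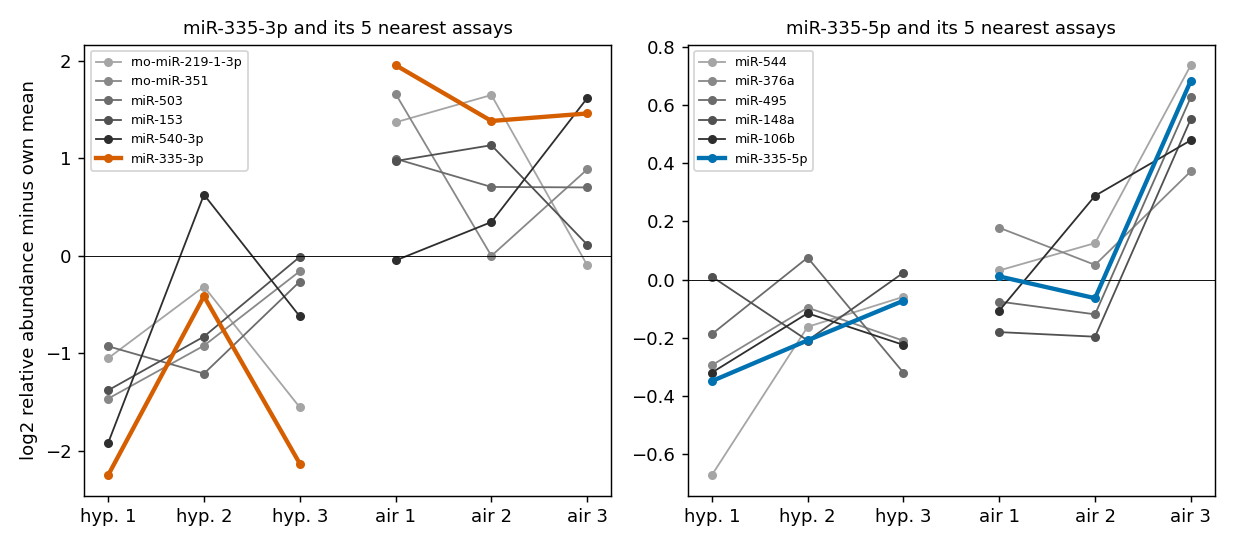
Log2 relative abundance, centred on each assay's mean over 6 samples, of miR-335-3p (left) and miR-335-5p (right) with the 5 assays nearest in pattern (grey). Lines join the values of an assay within a group, and the vertical scales differ. On the left miR-335-3p reaches lower in hyperoxia 1 and 3 than its neighbours, and on the right all 6 assays peak in room air 3.

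A short list of other imprinted genes outside the Dlk1-Dio3 region held miRNAs of Nespas, H19 and Igf2. It left out other imprinted genes, among them Sfmbt2 with its intron cluster of miRNAs. The 4 tested assays of the list other than miR-335 lay between -0.10 and 0.63 in hyperoxia, above both miR-335 strands. Of these 4 assays, the 3 above 0 lie in row G. Among these, miR-296-3p was at 0.63 ± 1.96, miR-296-5p at 0.36 ± 0.55 and miR-298 at 0.45 ± 1.53 (log2 ± SE), all transcribed from the Nespas antisense RNA beside Gnas. miR-675-3p, cut from the H19 RNA, was at -0.10 ± 0.30, with Ct values of 26.34, 26.38 and 26.69 in hyperoxia, against 25.36, 25.73 and 25.73 in room air. The other 3 assays of the list had too few readings for a test. miR-675-5p was detected in 1 sample, hyperoxia 1 (Ct 21.5), and miR-483, from an Igf2 intron, in no sample. The minor strand miR-483# on the second card was detected in 3 of the 4 samples used there, at Ct 27.9 and 28.8 in hyperoxia, against 25.3 in room air 3.

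In the Dlk1-Dio3 region, a cluster of miRNAs expressed from the maternal copy, 42 of 60 tested assays were below 0 in hyperoxia, and the median was -0.30. Over all assays tested, 319 of 551 (57.9%) were below 0, with a median of -0.12. By limma 0 of the 60 passed. The median of the region stayed below 0 under all 21 alternative settings, from -1.01 to -0.21. That of all assays tested was below 0 in 19 of the 21, and ran from -0.62 to 0.18. The -1.01 came with no reference, where the median of all assays was -0.62. The region's most abundant assay by Ct was miR-496, at 0.46 ± 0.53.

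Markers of lung cell types were read beside the miR-335 values, as log2 differences and as summed levels in units of the card's mean. Of 14 mesenchymal assays 9 were below 0, with a median of -0.22 that ranged from -0.73 to 0.23 over the settings. Their first-card sum was 448 to 552 in hyperoxia and 558 to 636 in room air, which did not overlap. The same held for 46 of 282 single first-card assays (16.3%), with hyperoxia lower. The sum was read with the card's mean as reference only. A sum of levels weighs the most abundant assays most, and the most abundant of the mesenchymal list, miR-145, was at -0.68 ± 0.23. The largest difference of the list went the other way, with miR-21 at 1.61 ± 0.33, 1 of 5 mesenchymal assays above 0 and named after its values were seen. Of 4 endothelial assays 2 were below 0, with a median of 0.29. Their first-card sum was 1166 to 1321 in hyperoxia and 1141 to 2422 in room air. Those below 0 were miR-126-3p at -0.61 ± 0.37 and miR-126-5p at -0.14 ± 0.25. The 2 above 0 were miR-221 at 1.30 ± 0.31 and miR-222 at 0.72 ± 0.32. Of these, miR-126-5p, miR-221 and miR-222 were named after their values were seen. Of 14 epithelial assays 9 were below 0, with a median of -0.12. Their first-card sum was 124 to 225 in hyperoxia and 198 to 229 in room air. The most abundant assay of the list, that of human miR-200c on the second card (2 samples used per group), was at 0.12 ± 0.39. The mouse miR-200c assay on the first card, detected in all 6 samples, was at -0.12 ± 0.33.

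Among blood cell lists, 4 of 9 leukocyte assays were below 0 (median 0.60, sum 214 to 237 in hyperoxia and 183 to 295 in room air), and the most abundant, the human miR-223 assay on the second card (2 samples used per group), was at 0.89 ± 0.68. Of 3 erythroid assays 1 was below 0 (median 0.24, sum 2.61 to 17.3 in hyperoxia and 2.25 to 10.2 in room air), and miR-486 was at 0.24 ± 0.79. Of 8 striated muscle assays 7 were below 0 (median -0.42, sum 5.02 to 42.1 in hyperoxia and 11.2 to 1202 in room air), and miR-133a was at -0.98 ± 0.46. The top of that last range came from miR-499 in room air 1, with a Ct of 11.8 there. By limma 0 assays of these 6 lists passed. Of the list medians, only that of the striated muscle list kept its sign under all 21 alternative settings. The median of all assays tested was below 0 in 19 of the 21. Every marker of the 6 lists was detected in at least 1 sample. The part of these cell types in the miR-335 values was not tested.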

How the data were processed

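Megaplex primer sets A and B were used for reverse transcription, followed by 12 pre-amplification cycles, per the labels' protocols. Instrument, software and signal threshold are not given in the sources used here. The authors deposited Ct values for 768 wells and 6 samples, with 40 where a well did not amplify. The authors deposited group means and a fold as well, per the file headers. The fold is a ratio of hyperoxia over room air set without a test.

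From these Ct values, the following was computed with R 4.3.3 and limma 3.58.1. Wells at a Ct of 35 and above were treated as missing. Levels are the mean Ct of miRNAs detected in all samples used on a card (282 and 249) minus the assay's Ct. Second-card values of hyperoxia 2 and room air 1, identical for nearly all wells, were left out. Assays detected in at least 2 samples of each group (551) were fitted by limma (lmFit, eBayes, two-sided) with Benjamini-Hochberg adjustment. The fit was run on simulated data with the same spread for all assays, as a check of the estimated differences only. Strand pairs are same-species first-card assays named -3p and -5p, or with and without a star mark. RNAfold 2.7.2 folded the hairpin. Sequences and positions are RefSeq's (GRCm38.p6).

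The named assays are the members, the 5 nearest in pattern to each, and the 3 largest and 3 smallest changes of strand gap. Also named are tested miRNAs of the short list of imprinted genes, the most abundant assay of each list and the control RNAs. Members, lists and rules were chosen with earlier results of these data known. Alternatives covered the reference, the detection ceiling, the filter, the cards, row G, single samples left out and the replicate number as a block.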

Additional observations from a re-analysis of the deposited data

How the results depend on the processing

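Over 21 alternatives, miR-335-3p was below 0 in all 21 and from -3.96 to -2.88, and miR-335-5p from -1.18 to -0.19, also below 0. Settings of the filter, undetected wells, the second card and the replicate block left both strands' values unchanged. The strand gap stayed 2.78 cycles wider except with quantile normalization (2.60) and with 1 sample left out (2.44 to 3.37). The other settings cancel within a sample. Since no hyperoxia gap overlapped room air, leaving out 1 sample could not turn its sign. The 5p value depended on the reference: it was -0.75 with the U6 wells of row A, -0.98 with the control RNAs and -1.18 with no reference, where the 3p value was -3.96. These settings also moved the median of all assays, which was -0.12, to -0.27 with the U6 wells of row A, -0.26 with all U6 wells and -0.62 with the control RNAs or no reference; it was 0.04 with the median as reference and 0.18 with the first-card mean for both cards. miR-335 ranked 1 among strand pairs with row G left out, since miR-324 then drops out, and 3 with a ceiling of 38. The median of the other miRNAs on the lists of imprinted genes was -0.28. It was -0.57 with the U6 wells of row A, -0.84 with the control RNAs and -0.95 with no reference. Of the 6 marker lists 3 had a median below 0, against 5 with the U6 wells of row A, 5 with the control RNAs and 6 with no reference; with 1 sample left out it was 2 to 4.

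By limma, 1 assay passed the adjusted threshold, in place of 0, with quantile normalization, a ceiling of 32, the first card alone or row G left out (miR-34a each time), and 1 without hyperoxia 1 (miR-322). These were named after their values were seen, and miR-335 passed in none. With 1 sample left out the count was 0 to 1. The count at an unadjusted p under 0.05, 50 as reported, was 124 with no reference and 19 to 47 with 1 sample left out, where 291 to 544 assays were tested in place of 551. First-card assays without overlap, 62 with all samples, were 110 with the control RNAs, 134 with no reference and 76 to 123 with 1 sample left out. With the replicate block, same-numbered samples taken as pairs, the differences were -3.20 and -0.42, the gap 2.78, and 27 assays had an unadjusted p under 0.05 with 301 tested. The labels do not say whether the numbers pair the samples. Deviations of same-numbered samples correlated across first-card assays at -0.34, -0.23 and -0.18, and 0 samples correlated best with their own number. Since deviations sum to 0 within a group of 3, these values cannot exclude a pairing. The number of samples, 3 per group, limits the precision; both strands lay well under the detection ceiling in all samples.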
